A study of Homo sapiens with 4 samples.

Results

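To examine how endothelial vein and artery genes stood when TGFβ signaling was blocked during the emergence of blood cells, 8 genes were followed in RNA-seq of cells derived from the line H1 of human embryonic stem cells (hESCs). The genes were NR2F2, EPHB4, APLNR, APLN, STAB1, STAB2 and LYVE1, which are read as vein-associated or sinusoidal endothelial genes, together with the arterial gene EFNB2. They were taken by symbol, and each of the 8 matched 1 row among the 58365 rows of the table. All libraries came from the same differentiation, with activin A at 40 ng/ml and BMP4 at 50 ng/ml for 2 days, then VEGF at 40 ng/ml and bFGF at 50 ng/ml for 3 days, and the same pair of factors for a further 3 days. In the last 3 days the control cells received DMSO and the other cells received SB431542 (SB), an inhibitor of the kinase activity of the TGFβ type I receptor. Cells were harvested on day 8, with 2 DMSO libraries and 2 SB libraries, numbered 1 and 2 in each group. The labels do not say whether these came from separate cultures, so a p-value measures only the spread between these libraries. The study describes collecting CD31-positive cells, a step that the labels do not mention.

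Endothelial cells take on arterial, venous or lymphatic features as vessels form. NR2F2 (COUP-TFII) is an orphan nuclear receptor known for keeping vein identity by holding back Notch signaling. EPHB4 is a receptor tyrosine kinase of veins, and its membrane-bound ligand ephrin-B2, encoded by EFNB2, marks arteries, so that the pair meets where the vessel types touch. APLNR is the G protein-coupled receptor for the peptide apelin, encoded by APLN, and is found on mesoderm and on venous endothelium, while apelin itself is known from sprouting tip cells. STAB1 and STAB2 are large scavenger receptors of sinusoidal endothelium, and STAB2 and LYVE1 bind hyaluronan. STAB1 and LYVE1 are also known from macrophages, and LYVE1 from lymphatic endothelium.

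The sequences upstream of the related pairs STAB1 and STAB2, and EPHB4 and EFNB2, are shown because the genes of the first pair differed from each other between SB and DMSO and those of the second are receptor and ligand. Each is the stretch of 250 bases before the RefSeq start (GRCh38.p14), written 5′ to 3′ on the strand of the gene, with matches to CCAAT or TATAA, read on both strands, in capitals. The windows lie at chr3:52495088-52495337 (plus strand, STAB1), chr12:103587023-103587272 (plus strand, STAB2), chr7:100827524-100827773 (minus strand, EPHB4) and chr13:106535663-106535912 (minus strand, EFNB2).
STAB1: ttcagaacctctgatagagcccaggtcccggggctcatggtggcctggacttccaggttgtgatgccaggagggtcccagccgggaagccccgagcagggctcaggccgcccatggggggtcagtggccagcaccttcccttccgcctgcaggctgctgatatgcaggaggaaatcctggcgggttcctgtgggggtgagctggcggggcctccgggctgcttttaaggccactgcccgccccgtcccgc
STAB2: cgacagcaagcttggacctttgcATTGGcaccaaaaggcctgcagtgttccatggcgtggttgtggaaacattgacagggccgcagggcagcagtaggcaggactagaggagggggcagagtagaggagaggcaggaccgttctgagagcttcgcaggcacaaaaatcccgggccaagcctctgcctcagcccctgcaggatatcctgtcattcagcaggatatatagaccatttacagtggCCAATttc
EPHB4: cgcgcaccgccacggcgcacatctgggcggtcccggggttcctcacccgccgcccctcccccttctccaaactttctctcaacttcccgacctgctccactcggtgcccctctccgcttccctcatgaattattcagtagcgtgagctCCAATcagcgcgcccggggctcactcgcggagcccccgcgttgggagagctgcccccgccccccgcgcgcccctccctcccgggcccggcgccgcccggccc
EFNB2: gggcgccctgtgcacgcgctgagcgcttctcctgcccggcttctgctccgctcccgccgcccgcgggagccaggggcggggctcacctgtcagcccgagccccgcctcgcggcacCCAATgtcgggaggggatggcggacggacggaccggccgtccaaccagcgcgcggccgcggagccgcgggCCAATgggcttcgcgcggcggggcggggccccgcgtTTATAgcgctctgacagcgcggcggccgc

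The STAB2 window holds CCAAT 8 bases before the start and its reverse 227 bases before it, while the STAB1 window holds neither motif. In G and C content the windows read 67.6% for STAB1, 55.6% for STAB2, 72.8% for EPHB4 and 78.4% for EFNB2, against a median of 58.0% over 35116 RefSeq windows of the same length. CCAAT stands 102 bases before the start of EPHB4, and 135 and 65 bases before that of EFNB2, which also holds TATAA on the opposite strand 29 bases before the start. Of all windows, 32.0% hold CCAAT and 18.9% hold TATAA on either strand. The core SMAD motif CAGAC, found in 38.0% of all windows, is in none of the 4 windows shown and not in that of APLN. It occurs 4 times, on either strand, in 1 of the 2 NR2F2 windows, the one at chr15:96333515-96333764. Both NR2F2 windows lie before starts inside the gene, so no window before its annotated first base was searched. TGGGAA (RBPJ, 20.8% of all windows), AGGTCA (a nuclear receptor half-site, 12.1%) and GATAA (GATA factors, 20.4%) are in none of the 7 windows of these 6 genes, and ACAAT (SOX factors, 24.6%) only in that of APLN, on the opposite strand 249 bases before the start. APLNR and LYVE1 had no entry. A match or its absence describes these letters only, and says nothing of the binding of a factor.

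The authors deposited FPKM, a fragment count corrected for transcript length and sequencing depth. Because these are per length, levels of different genes can be set side by side. The totals of fragments are not given, but in genes of at least 3000 nt with a single transcript the lowest values move in steps of 1 fragment, and the size of the step puts the libraries at roughly 18200000 to 24100000 fragments, with SB replicate 1 the shallowest (75.4% of the deepest). Libraries of different replicate number were unlike each other. The first principal component, with 47.4% of the variance, placed each library of replicate 1 below its counterpart of replicate 2. Within each number it also placed DMSO below SB. The second component, with 38.7%, placed both DMSO libraries above both SB libraries. Mitochondrial genes took 5.88% and 6.64% of the FPKM sum in replicate 1 and 9.92% and 10.2% in replicate 2. Because of the differences between replicate numbers, the difference within each number follows the pooled value. The pan-endothelial markers were present in each library. PECAM1, which encodes CD31, stood between 153 and 197 FPKM and the endothelial cadherin CDH5 between 202 and 273 FPKM. In these bulk libraries, fewer cells of a type and less RNA per cell cannot be told apart. Of 10 listed TGFβ target genes, 9 were lower in both SB libraries than in both DMSO libraries, with a median log2 difference of -2.05.

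Across all 14909 genes tested with limma, 20 (0.134%) differed between SB and DMSO libraries at a Benjamini-Hochberg adjusted p under 0.05, and 0 of the 8 genes were among them. At an unadjusted p under 0.05, 3 of the 8 were higher with SB (STAB2, LYVE1 and NR2F2), against 4.80% of all genes tested, and 0 were lower, against 5.16%. Both SB libraries lay above both DMSO libraries for 4 of the 8 (STAB2, LYVE1, NR2F2 and APLNR), against 21.5% of all genes, and below them for 2 (EFNB2 and APLN), against 16.0%. The groups overlapped for EPHB4 and STAB1. Genes entered the test with a mean of at least 1 FPKM in at least 1 group. STAB2 and LYVE1 passed this limit only through the SB libraries and APLN only through the DMSO libraries, so their place among the tested genes already leaned on a difference, and the other 5 passed in both groups. The median log2 difference over the 8 genes was 0.19 (0.12 within replicate number 1 and 0.26 within number 2), against 0.040 over all genes tested, and over the 5 genes that passed in both groups it was -0.070. Leaving out 1 library gave a median over the 8 of 0.36 (DMSO replicate 1), 0.090 (DMSO replicate 2), 0.11 (SB replicate 1) or 0.29 (SB replicate 2). With the replicate number as a block, which the labels do not establish as a pairing, 10.5% of all genes tested passed the adjustment, and 5 of the 8 did: STAB2, APLNR, LYVE1 and NR2F2, higher with SB (limma adjusted p 0.0173, 0.0260, 0.0273 and 0.0305), and EPHB4, lower (0.0351).

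**Figure D1:**
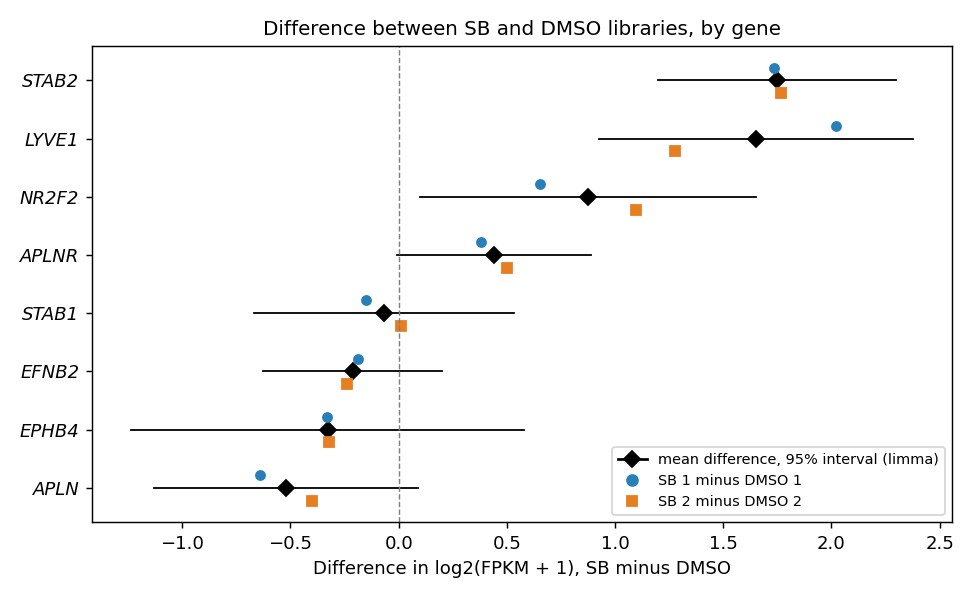
Difference between SB and DMSO libraries in log2(FPKM + 1) for each of the 8 genes (x axis). Diamonds and lines are the mean difference and its 95% interval from limma (2 libraries per group), circles the difference within replicate number 1 and squares that within number 2. The intervals of STAB2, LYVE1 and NR2F2 lie above 0 before adjustment, and those of the other 5 genes reach 0 or cross it.

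The largest differences among the 8 genes were those of the hyaluronan-binding receptors STAB2 and LYVE1, which were close to the floor of the table with DMSO. STAB2 (ENSG00000136011.14, GRCh38 chr12:103587273-103766727, plus strand), an endocytic receptor of sinusoidal endothelium, stood at 0.135 and 0.0854 FPKM with DMSO and at 2.77 and 2.69 FPKM with SB. The groups were far apart, and the SB libraries were nearly level with each other. Means were 0.110 ± 0.0348 and 2.73 ± 0.0583 FPKM (SD, n = 2 each), a ratio of 24.8, with ratios of 20.6 and 31.5 within replicate numbers 1 and 2. On the log2(FPKM + 1) scale, which understates the change of low genes, the difference was 1.75 (95% interval 1.20 to 2.30, limma adjusted p 0.0952). By unadjusted p STAB2 ranked 78th of all genes tested. With the longest coding transcript of 8251 nt, these values correspond to an estimated 25 and 15 fragments in the DMSO libraries and 416 and 535 in the SB libraries, so the DMSO level rests on few fragments. The antisense genes AC025265.1 and AC025265.3, which share 160 and 87 exonic bases with STAB2, were at 0 but for 0.254 FPKM of the first in SB replicate 2.

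LYVE1 (ENSG00000133800.8, GRCh38 chr11:10556966-10611689, minus strand) stood at 0.524 and 0.663 FPKM with DMSO and at 5.19 and 3.03 FPKM with SB. Both SB libraries lay above both DMSO libraries, and the SB libraries differed from each other by a factor of 1.71. Means were 0.593 ± 0.0979 and 4.11 ± 1.53 FPKM (SD, n = 2 each), a ratio of 6.93, with ratios of 9.90 and 4.58 within numbers 1 and 2. On the log2 scale the difference was 1.65 (95% interval 0.92 to 2.38, limma adjusted p 0.169). The estimated fragments, on a transcript of 3273 nt, were 39 and 47 with DMSO and 309 and 239 with SB. The gene MRVI1 overlaps LYVE1 on the same strand but shares 0 exonic bases with it. MRVI1 stood at 2.53 and 2.99 FPKM with DMSO and at 4.78 and 4.22 FPKM with SB.

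STAB1, the relative of STAB2, showed no such difference. STAB1 (ENSG00000010327.10, GRCh38 chr3:52495338-52524495, plus strand) stood at 108 and 78.4 FPKM with DMSO and at 97.4 and 79.0 FPKM with SB. The groups overlapped, and in each group replicate 1 was the higher library. STAB1 had a log2 difference of -0.070 (95% interval -0.67 to 0.53, limma adjusted p 0.973), with -0.15 and 0.010 within numbers. In plain FPKM, STAB2 amounted to 0.00124 and 0.00109 of STAB1 with DMSO and to 0.0285 and 0.0340 with SB. This difference of 4.74 in the log2 ratio, a comparison chosen after its values were seen, has an exact permutation p of 0.333, the smallest that 2 libraries against 2 can give. The transcripts of STAB1 and STAB2 shared no stretch of 75 bases with each other. STAB1 shares 111 exonic bases with NT5DC2 on the opposite strand, which stood between 89.5 and 199 FPKM, and strand use in counting is not stated.

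**Figure D2:**
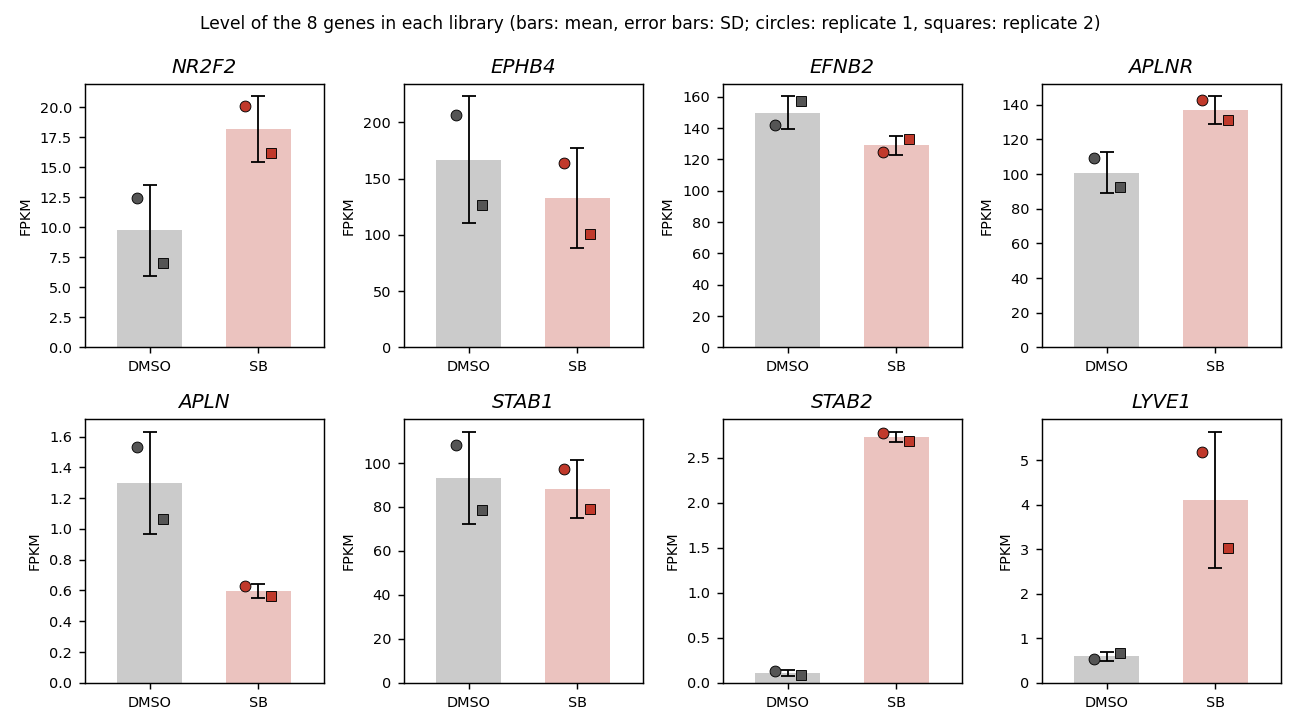
FPKM of each of the 8 genes in each library (y axes start at 0 and differ between panels). Bars are group means, error bars are SD (n = 2), circles are replicate 1 and squares replicate 2. STAB2 and LYVE1 were near 0 with DMSO and at 2.69 FPKM or more in each SB library, while EPHB4 and STAB1 differed more by replicate number than by group.

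Macrophage and myeloid markers that reached the limit for testing were higher with SB, as were STAB2 and LYVE1, and those under it were divided. Of 14 listed markers 8 were tested, and all 8 were higher in both SB libraries than in both DMSO libraries, with a median log2 difference of 1.22, which was 0.46 over all 14 without the limit. Of the 8, 5 had an unadjusted p under 0.05 and 0 passed the adjustment. CSF1R, the receptor of a macrophage growth factor, stood at 2.77 and 1.83 FPKM with DMSO and at 14.4 and 12.5 FPKM with SB (log2 difference 2.14, limma adjusted p 0.0753). TYROBP and FCER1G, signaling adaptors of myeloid cells, had log2 differences of 1.31 and 1.33 (limma adjusted p 0.0948 and 0.144). The summed level of the list was 174 to 175 FPKM in the DMSO libraries and 408 FPKM in each SB library. Levels were not low throughout. SPI1 of the same list stood at 55.4 and 26.2 FPKM with DMSO and at 113 and 63.9 FPKM with SB. The blood marker SPN, which encodes CD43, stood at 31.6 and 36.2 FPKM with DMSO and at 52.9 and 66.8 FPKM with SB. Some other defining markers were at or near 0. PTPRC, which encodes the pan-leukocyte antigen CD45, reached at most 0.202 FPKM in a library, CD14 0.169, CD163 0.588, C1QA 0.167, C1QB 0.101 and C1QC 0.0531. At these low levels PTPRC, CD14 and CD163 were higher in both SB libraries than in both DMSO libraries, and the C1Q genes overlapped. ITGAM, an integrin of myeloid cells, ran the other way, at 0.429 and 0.610 FPKM with DMSO and at 0.0458 and 0.0521 FPKM with SB. The part of myeloid cells in the levels of STAB1, STAB2 and LYVE1 was not tested.

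Lymphatic genes beside LYVE1 were divided. Of 10 listed genes 8 were tested, with a median log2 difference of -0.37 (-0.49 and -0.34 within numbers, -0.047 without DMSO replicate 1 and -0.21 without SB replicate 2). Both SB libraries were above both DMSO libraries for 1 of them, MMRN1, an endothelial and platelet adhesive protein (21.97 and 32.3 FPKM with DMSO, 43.2 and 56.7 FPKM with SB). They were below for 2, the transcription factor FOXC2 of lymphatic valves (6.08 and 4.06 FPKM with DMSO, 0.904 and 0.474 FPKM with SB) and the growth factor VEGFC (1.498 and 1.70 FPKM with DMSO, 0.800 and 0.757 FPKM with SB). None of the 3 passed the adjustment (limma adjusted p 0.385, 0.135 and 0.501). FOXC2 and VEGFC passed the limit for testing only through the DMSO libraries, and so did PDPN (log2 difference -0.20, groups overlapping). The place of these genes among the tested genes already leaned on a difference. Without the limit the median over all 10 genes was -0.083. PROX1, the factor that sets lymphatic fate, stood between 1.04 and 2.08 FPKM and its groups overlapped. Among 16 other scavenger and hyaluronan receptors 9 were tested, with 4 higher and 3 lower without overlap and a median of 0.12, which was 0.046 without DMSO replicate 1 and 0.069 without DMSO replicate 2. HMMR, a hyaluronan-binding protein of the mitotic spindle, had a log2 difference of 1.22 (limma adjusted p 0.207), while the hyaluronan receptor LAYN (-1.28, limma adjusted p 0.257) and the scavenger receptor COLEC12 (-0.56, limma adjusted p 0.391) were lower.

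NR2F2 (ENSG00000185551.14, GRCh38 chr15:96325938-96340263, plus strand), the transcription factor of the 8 genes, stood at 12.4 and 7.05 FPKM with DMSO and at 20.1 and 16.2 FPKM with SB. Both SB libraries were above both DMSO libraries, and replicate 1 was the higher library in each group. Means were 9.73 ± 3.80 and 18.2 ± 2.75 FPKM (SD, n = 2 each), a ratio of 1.87, and ratios within numbers were 1.62 and 2.30. The log2 difference was 0.87 (95% interval 0.098 to 1.65, unadjusted p 0.0342, limma adjusted p 0.450), and it was 0.51 without DMSO replicate 2. The antisense transcript NR2F2-AS1, which overlaps the gene but none of its exons, reached at most 0.7501 FPKM in a library. Its close relative NR2F1 was under 1 FPKM in each library and was not tested. Of 8 listed relatives and cofactors 6 were tested, with a median of -0.21 (-0.13 without DMSO replicate 1) and 1 higher and 2 lower without overlap. These included the cofactor ZFPM2 (0.30, limma adjusted p 0.727), the nuclear receptor NR2C2 (-0.40, limma adjusted p 0.567) and the repressor BCL11A (-0.55, limma adjusted p 0.488).

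The receptor EPHB4 and its ligand EFNB2 were the most highly expressed of the 8 genes with DMSO. EPHB4 (ENSG00000196411.9, GRCh38 chr7:100802565-100827521, minus strand) stood at 207 and 127 FPKM with DMSO and at 164 and 101 FPKM with SB. The groups overlapped, and replicate 1 exceeded replicate 2 by a factor of 1.63 with DMSO and 1.62 with SB. Against this, the ratio of SB to DMSO was 0.793 in number 1 and 0.797 in number 2. The log2 difference was -0.33 (-0.33 and -0.32 within numbers, 95% interval -1.24 to 0.58, limma adjusted p 0.872). Leaving out DMSO replicate 1 gave 0.022, and leaving out SB replicate 2 gave 0.017.

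EFNB2 (ENSG00000125266.6, GRCh38 chr13:106489731-106535114, minus strand) stood at 142 and 157 FPKM with DMSO and at 125 and 133 FPKM with SB. Both SB libraries were below both DMSO libraries, and here replicate 2 was the higher library in each group. Means were 150 ± 10.6 and 129 ± 6.09 FPKM (SD, n = 2 each), a ratio of 0.861. The log2 difference was -0.21 (-0.19 and -0.24 within numbers, 95% interval -0.63 to 0.20, limma adjusted p 0.778) and was -0.14 without DMSO replicate 2. In GENCODE release 29 an antisense gene, AL138689.2, shares 1313 exonic bases with EFNB2, and 19.1% of the 75-base stretches of EFNB2 transcripts also occur there on the other strand. The deposited values hold no row for that gene. Release 29 lists EFNB2 as ENSG00000125266.7 at another position, so this overlap is that of a gene model other than the deposited one.

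The balance of ligand and receptor followed the replicate number and not the group. In plain FPKM, EFNB2 amounted to 0.688 and 1.24 of EPHB4 with DMSO and to 0.761 and 1.32 with SB. Each group thus held 1 library with more receptor and 1 with more ligand. The log2 ratio differed by 0.12 between groups (0.14 and 0.088 within numbers), with an exact two-sided permutation p of 0.667.

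Relatives of this pair either overlapped between the groups or were mostly lower with SB, and 0 passed the adjustment. Of 13 other Eph receptors 8 were tested, with a median log2 difference of -0.51 that was -0.18 if DMSO replicate 1 was left out, -0.79 if SB replicate 1 was and -0.31 if SB replicate 2 was. Without the limit for testing the median was -0.24 over 12 receptors. Both SB libraries were below both DMSO libraries for 3 of the 8 tested receptors, and above them for 0. The 3 were EPHB2 (2.82 and 2.13 FPKM with DMSO, 0.677 and 0.509 FPKM with SB, limma adjusted p 0.220), EPHA1 (-0.95, limma adjusted p 0.289) and EPHA7 (-0.73, limma adjusted p 0.318). EPHB2 and EPHA1 passed the limit only through the DMSO libraries, so their place among the tested genes already leaned on a difference. All the other Eph receptors were far below EPHB4 in level, the next receptor being EPHA2 at 18.3 to 44.7 FPKM. The 7 other ephrins were all tested, with a median of -0.43 (-0.66 without DMSO replicate 2 and -0.65 without SB replicate 1), 4 lower and 1 higher without overlap. EFNA5, 1 of the 4 lower and itself the median value, passed the limit only through the DMSO libraries. With at least 5 FPKM in at least 2 libraries, a limit that removes EFNA5, the median was -0.51 over 6 ephrins. EFNA1, the most abundant of them, stood at 180 and 183 FPKM with DMSO and at 96.8 and 111 FPKM with SB (log2 difference -0.80, limma adjusted p 0.219). EFNB3 and EFNA4 had log2 differences of -0.64 and -0.38 (limma adjusted p 0.367 and 0.614).

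The apelin receptor and its ligand differed in opposite directions. APLNR (ENSG00000134817.10, GRCh38 chr11:57233577-57237314, minus strand) stood at 109 and 92.3 FPKM with DMSO and at 143 and 131 FPKM with SB. Both SB libraries were above both DMSO libraries, and the libraries of each group lay close together. Means were 101 ± 11.98 and 137 ± 7.99 FPKM (SD, n = 2 each), a ratio of 1.36. The log2 difference was 0.44 (0.38 and 0.50 within numbers, 95% interval -0.0061 to 0.89, limma adjusted p 0.508).

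APLN (ENSG00000171388.11, GRCh38 chrX:129645259-129654937, minus strand) stood at 1.53 and 1.06 FPKM with DMSO and at 0.626 and 0.566 FPKM with SB. Both SB libraries were below both DMSO libraries. Means were 1.30 ± 0.333 and 0.596 ± 0.0425 FPKM (SD, n = 2 each), a ratio of 0.459. The log2 difference was -0.52 (-0.64 and -0.40 within numbers, 95% interval -1.13 to 0.092, limma adjusted p 0.589). With a single transcript of 3205 nt, the levels correspond to an estimated 110 and 74 fragments with DMSO and 36 and 44 with SB.

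The ligand amounted to 0.0140 and 0.0115 of its receptor with DMSO and to 0.00439 and 0.00432 with SB, in plain FPKM. The log2 ratio was lower in both SB libraries, with a difference of -1.55 (-1.68 and -1.42 within numbers) and an exact two-sided permutation p of 0.333, the smallest possible here. With 1 FPKM added to both genes the difference was -0.96. APELA, which encodes the other peptide ligand of this receptor, stood at 2.82 and 4.80 FPKM with DMSO and at 1.16 and 0.702 FPKM with SB (log2 difference -1.30, limma adjusted p 0.259). Like APLN, APELA passed the limit for testing only through the DMSO libraries. Of 9 listed partners of the system 8 were tested, with a median of 0.18 that was 0.11 if DMSO replicate 1 was left out and 0.071 if SB replicate 2 was. Besides APELA, 2 did not overlap between groups and were higher, one of them the arrestin ARRB2 (0.66, limma adjusted p 0.599), while ARRB1 overlapped (0.28, limma adjusted p 0.814).

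**Figure D3:**
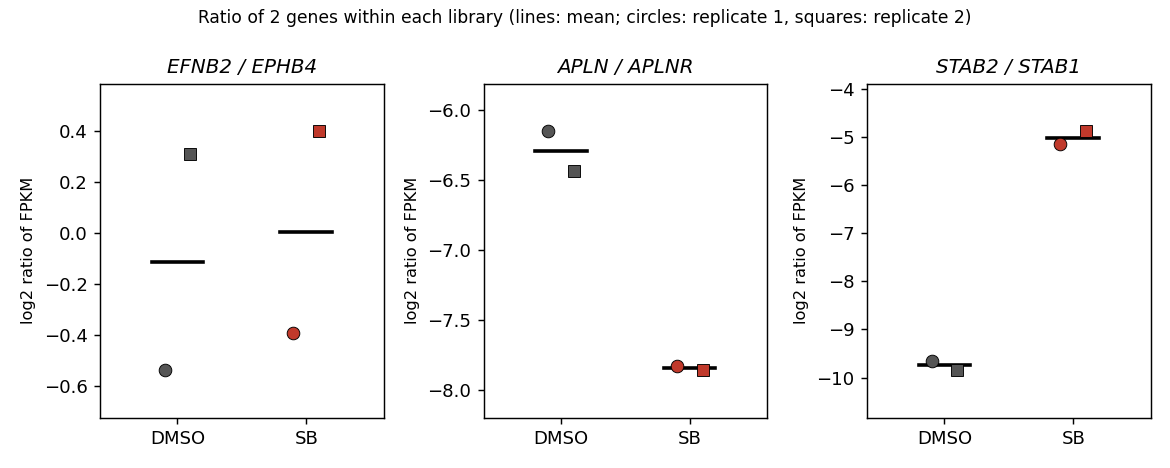
Log2 ratio of FPKM between 2 genes in each library (y axes differ and do not start at 0). Lines are group means, circles replicate 1 and squares replicate 2. The ratio of EFNB2 to EPHB4 separates by replicate number, while those of APLN to APLNR and of STAB2 to STAB1 separate by group.

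The order of the levels differed between the groups at both ends. With DMSO the order from the highest was EPHB4, EFNB2, APLNR, STAB1, NR2F2, APLN, LYVE1 and STAB2. With SB it was APLNR, EPHB4, EFNB2, STAB1, NR2F2, LYVE1, STAB2 and APLN. Neighbours whose libraries overlapped were EPHB4 with EFNB2 and APLNR with STAB1 in the DMSO libraries, and APLNR with EPHB4 and EPHB4 with EFNB2 in the SB libraries. The 4 highest genes stood above at least 93.3% of all genes tested in either group. NR2F2 stood above 49.4% of them with DMSO and 65.8% with SB, STAB2 above 0.537% and 21.6%, LYVE1 above 1.51% and 29.1%, and APLN above 8.34% and 1.97%.

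Other genes of vein and artery identity were set beside the 8. Of 9 other venous markers 8 were tested, and they were divided, with 4 higher and 1 lower without overlap, 0 past the adjustment and a median of -0.059 that turned to 0.048 without DMSO replicate 1 and was -0.13 without DMSO replicate 2, -0.11 without SB replicate 1 and -0.0032 without SB replicate 2. SELP is an adhesion receptor for leukocytes that is also known from platelets. It stood at 3.05 and 3.63 FPKM with DMSO and at 12.8 and 15.9 FPKM with SB (log2 difference 1.82, limma adjusted p 0.0803). The part of megakaryocytes in its level was not tested. NRP2, a co-receptor for VEGF and semaphorins on veins, stood at 58.9 and 47.7 FPKM with DMSO and at 112 and 90.6 FPKM with SB (log2 difference 0.92, limma adjusted p 0.253). SELE, a related adhesion receptor, was lower (-0.84, limma adjusted p 0.310). Arterial genes were lower in most cases. Of 15 tested, 10 were lower and 1 was higher without overlap, 9 had an unadjusted p under 0.05, and the median was -0.63 (-0.67 and -0.59 within numbers). The connexin GJA5 alone passed the adjustment (log2 difference -2.78, limma adjusted p 0.0365), followed by the Notch target HEY2 (-1.67, limma adjusted p 0.0697) and the netrin receptor UNC5B (-1.49, limma adjusted p 0.205). The difference of EFNB2 (-0.21) was nearer to 0 than the median of these arterial genes. Among 10 pan-endothelial markers the median was -0.16, and it was -0.041 without DMSO replicate 1, -0.034 without SB replicate 2, -0.30 without DMSO replicate 2 and -0.29 if SB replicate 1 was left out. Of these markers ENG (-1.72, limma adjusted p 0.0986), ROBO4 (-1.09, limma adjusted p 0.135) and CDH5 (-0.28, limma adjusted p 0.710) were lower without overlap and 0 were higher.

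**Figure D4:**
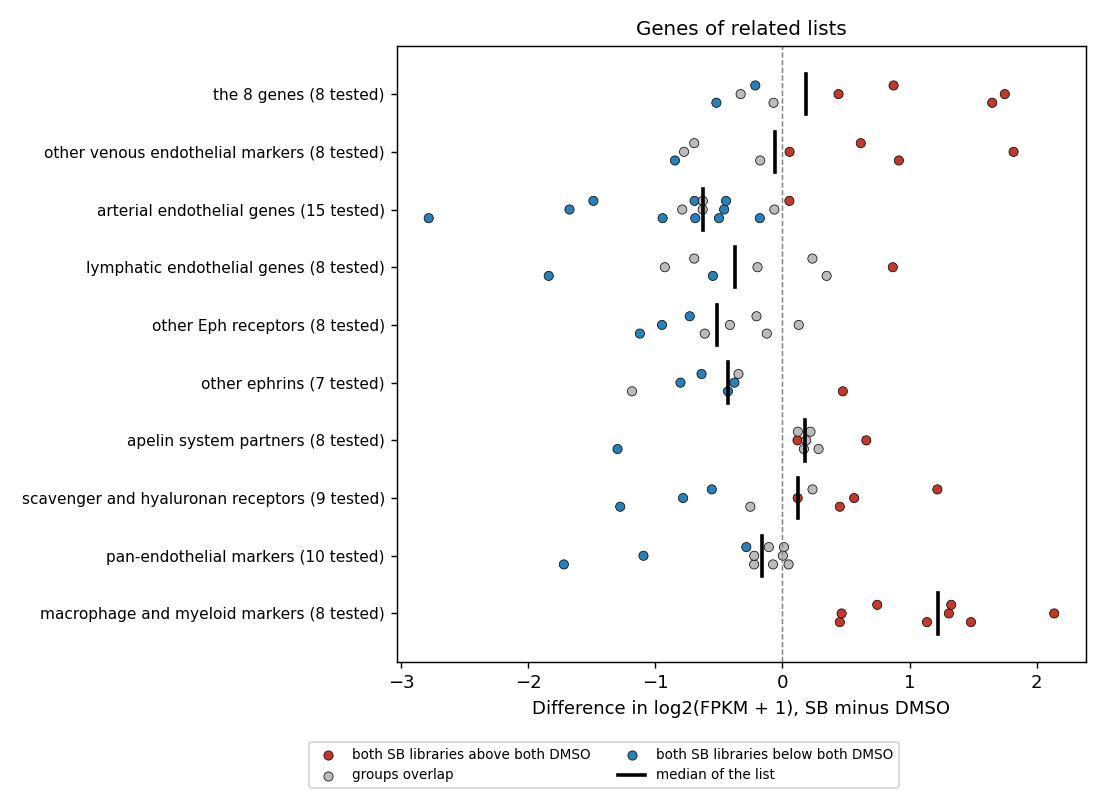
Difference in log2(FPKM + 1) between SB and DMSO libraries (x axis) for the tested genes of the lists shown (rows). Each point is a gene, red where both SB libraries are above both DMSO libraries, blue where both are below and grey where the groups overlap, and black bars are medians. Points of the arterial genes lie mostly below 0 (median -0.63) and those of the macrophage and myeloid markers above it (median 1.22), while the 8 genes and the other venous markers lie on both sides.

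Markers of other cell types also differed between the groups. The study describes collecting CD31-positive cells, and each library held some of the markers listed for mesenchymal, cardiac and liver cells. Which cells these transcripts came from was not tested. Of the tested genes in each list, both SB libraries were above both DMSO libraries for 8 of 8 blood progenitor and megakaryocyte markers, and below for 5 of 9 erythroid, 8 of 9 mesenchymal and mural, 4 of 4 mesoderm and cardiac and 8 of 8 endoderm and liver markers. Medians of the log2 difference were 0.80, -0.39, -0.82, -1.96 and -2.50 in turn. Without the limit for testing they were 0.80, -0.39, -0.66, -0.76 and -2.07. Some mesoderm and cardiac and some endoderm and liver markers passed this limit only through the DMSO libraries. A blood marker passed it only through the SB libraries. The place of such markers among the tested genes already leaned on a difference. NR2F2 and APLNR are also known from mesenchyme and mesoderm, and bulk libraries do not show which cells their transcripts came from. The summed level of the mesenchymal and mural list was 390 to 432 FPKM with DMSO and 215 to 216 FPKM with SB. PDGFRB, a receptor of mural cells, stood between 4.002 and 5.06 FPKM (log2 difference -0.16, limma adjusted p 0.884), and AFP, a fetal liver protein, at 43.5 and 54.2 FPKM with DMSO and at 3.45 and 3.05 FPKM with SB (-3.55, limma adjusted p 0.0232). The part of such cells in the levels of the 8 genes was not tested.

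Among the 10007 other genes with a mean of at least 5 FPKM, those nearest in pattern over the 4 libraries were found for the 5 genes of the same level, by the root mean square difference of log2(FPKM + 1) centred on its mean. NR2F2 had few neighbours, with 15 genes within 0.1, led by the protease PCSK6 (0.0572), the cytoskeletal gene DMTN (0.0642) and the imprinted gene DLK1 (0.0773). EPHB4 had 137 genes within 0.1, led by TSPAN18 (0.0142), NMB (0.0162) and TMEM74B (0.0186), and APLNR had 262, led by POLR2L (0.0123), SLC20A2 (0.0180) and CSK (0.0199). EFNB2 and STAB1, whose levels varied least, had 681 and 633, led by UPP1 (0.00455), FKBP7 (0.00956) and ZNF514 (0.0132) for EFNB2 and by TMUB2 (0.0139), ANK1 (0.0148) and GRN (0.0165) for STAB1. With 4 libraries these are descriptions only.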

How the data were processed

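RNA-seq was run by a sequencing provider. The authors deposited FPKM values in 58365 rows with 1 column per library. The submitters' processing notes name BWA, Bowtie and RSEM and the build hg19, with no roles. The loci in the table are those of GRCh38, however: 95.5% of the identifiers occur with the same version in GENCODE release 29, and of these 100% (rounded) have the same position. Coordinates are given on GRCh38, counted from 1. The annotation release, strand use and scaling between libraries are not given in the sources used here.

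Values were transformed to log2(FPKM + 1), and genes with a mean of at least 1 FPKM in at least 1 group entered a limma fit (version 3.58.1, R 4.3.3, empirical Bayes with a trend, group as the only term, two-sided, Benjamini-Hochberg over 14909 genes, threshold 0.05), after the fit had been tested on simulated data. Ratios within libraries were compared by an exact permutation test. Fragments were estimated from the longest coding transcript and the step of 1 fragment. Depth estimates and fragment numbers carry no error here, and counting error was not tested. On this step, within 0.12 of a whole number of fragments, lay 86.8% to 91.9% of the low values.

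The 8 genes and the lists were chosen with earlier results of these data known. From each list of the vessel, Eph, ephrin, apelin, nuclear receptor, scavenger and myeloid genes, those past the adjustment and up to 3 with the smallest unadjusted p are named, with PECAM1, CDH5, CSF1R, PTPRC, PDGFRB and AFP as defining markers and the 3 genes nearest in pattern. The same rule picks genes in the other lists, which are given by counts only. Genes named for another reason were chosen after their values were seen. They are PROX1, PDPN, EPHA2, EFNA5, NR2F1, NR2F2-AS1, NT5DC2, MRVI1, SPI1, SPN, ITGAM, CD14, CD163 and the C1Q genes. Alternatives were the replicate block, a pseudocount of 0.1, 3 other filters, 3 scalings, no trend and leaving out each library.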

Additional observations from a re-analysis of the deposited data

How the results depend on the processing

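The labels do not establish that equal replicate numbers pair the libraries, although libraries with the same number deviated together (r of 0.53 across genes between DMSO 1 and SB 1). With the replicate number as a block, 1564 genes passed (10.5% of those tested) and 5 of the 8 were among them: STAB2 (1.75, limma adjusted p 0.0173), APLNR (0.44, 0.0260), LYVE1 (1.65, 0.0273), NR2F2 (0.87, 0.0305) and EPHB4 (-0.33, 0.0351), while EFNB2, APLN and STAB1 had adjusted p of 0.0859, 0.203 and 0.547. None of the 8 passed under any other alternative run. The count over all genes was 0 without a filter (2739 at an unadjusted p under 0.05) and 31 with quantile normalization, and without single libraries it ran from 0 (without DMSO replicate 1, where 1101 had an unadjusted p under 0.05) to 16, with 7 without SB replicate 1, on the assumption that the lone library varies like the other group.

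Leaving out single libraries turned the direction of EPHB4 (-0.68 to 0.022), of STAB1 (-0.30 to 0.16, above 0 without DMSO replicate 1 and at 0.080 without SB replicate 2) and of the log2 ratio of EFNB2 to EPHB4 (-0.31 without DMSO replicate 1 and -0.28 without SB replicate 2, up to 0.54). The median of the 8 was -0.070 at 5 FPKM in 2 libraries, a limit that removes STAB2, LYVE1 and APLN. The differences of STAB2, LYVE1 and APLN depended on the pseudocount, reaching 3.76, 2.56 and -0.99 at 0.1. A filter on the mean over the 4 libraries (at least 0.5 FPKM), chosen after seeing the data, gave STAB2 an adjusted p of 0.0831 and LYVE1 one of 0.162. Of 101 values of the 8 genes under these alternatives, 92 kept their direction and their side of the threshold. The cause of these changes was not tested.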
